A study of Mus musculus with 93 samples.

Results

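In the livers of 7 inbred mouse strains, 14 genes had almost no reads in a single strain and clearly more in each of the others. They are described here strain by strain. The genes were chosen by their strain means of CPM, the reads of a gene scaled to the size of the library with TMM factors. A gene was taken when its mean was below 0.2 CPM in exactly 1 of 7 strains and at least 3 CPM in each of the other 6, over both diets, on an autosome. The rule found 14 genes of 53465 in the table, 49053 of them autosomal, and 9602 autosomal genes reached 3 CPM in at least 6 strains. It found 3 genes silent in C57BL/6J, 2 in DBA/2J, 2 in WSB/EiJ, 4 in CAST/EiJ, 3 in PWK/PhJ, and 0 in A/J and 129S1/SvImJ. Because the strain means selected them, strain levels are given below as a description, with no test. "Silent" means only that the mean fell below the limit in reads counted on the C57BL/6J reference. Likewise, a strain said to express a gene had a mean of at least 3 CPM in such reads. They can come from a nearly identical gene elsewhere, and their source was not tested.

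The data are RNA-seq of livers from 93 male mice of 4 classical strains (129S1/SvImJ, A/J, DBA/2J, and C57BL/6J) and 3 wild-derived strains (CAST/EiJ, PWK/PhJ, and WSB/EiJ). All mice were housed at 30 °C, which is thermoneutral (TN) for a mouse, from 6 wk of age, received a control diet (CD, 10% of energy from fat) or a western-style diet (WD, 40%) from 7 wk, and were killed at 24 wk after 17 wk of diet. The 14 groups of strain and diet held 5 to 8 mice each, spread over 2 or 3 numbered cohorts per strain. No transgene or induced mutation is part of the design, so the strains differ by their natural genomes.

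Depth lay between 40020424 and 49894856 reads on genes per mouse, so 3 reads over all mice of a strain correspond to 0.00356 to 0.00611 CPM, which is counting error only. The hepatocyte markers summed to between 75799 and 221828 CPM in every mouse, and 8 of 8 were above 0.2 CPM in each strain mean. Pancreas markers, which mark tissue next to the liver, summed to between 1.11 and 758 CPM, and no member of any marker list was among the 14 genes. The share of reads that did not map was 12.1% ± 1.82 in CAST/EiJ (SD, n = 15), 5.86% ± 2.46 in PWK/PhJ (n = 13), and 2.52% ± 0.567 in C57BL/6J (n = 16), the strain of the reference genome. In the other 4 strains the mean lay between 2.17% in A/J and 5.97% in WSB/EiJ.

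Inbred strains differ by deletions, retrotransposed copies, and diverged alleles. Reads are counted against one reference sequence, so a gene can lack reads because the RNA is not made, because the gene is absent, or because its sequence differs too much from the reference to be placed. Outside the strain of the reference, a gene count cannot tell these apart. In the strain of the reference, reads were placed on its own sequence, where the genes silent in it are annotated. Why those genes had few reads there was not tested. A retrocopy, an RNA copied back into the genome, can also take reads from its parent gene where both are nearly identical.

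**Figure D1:**
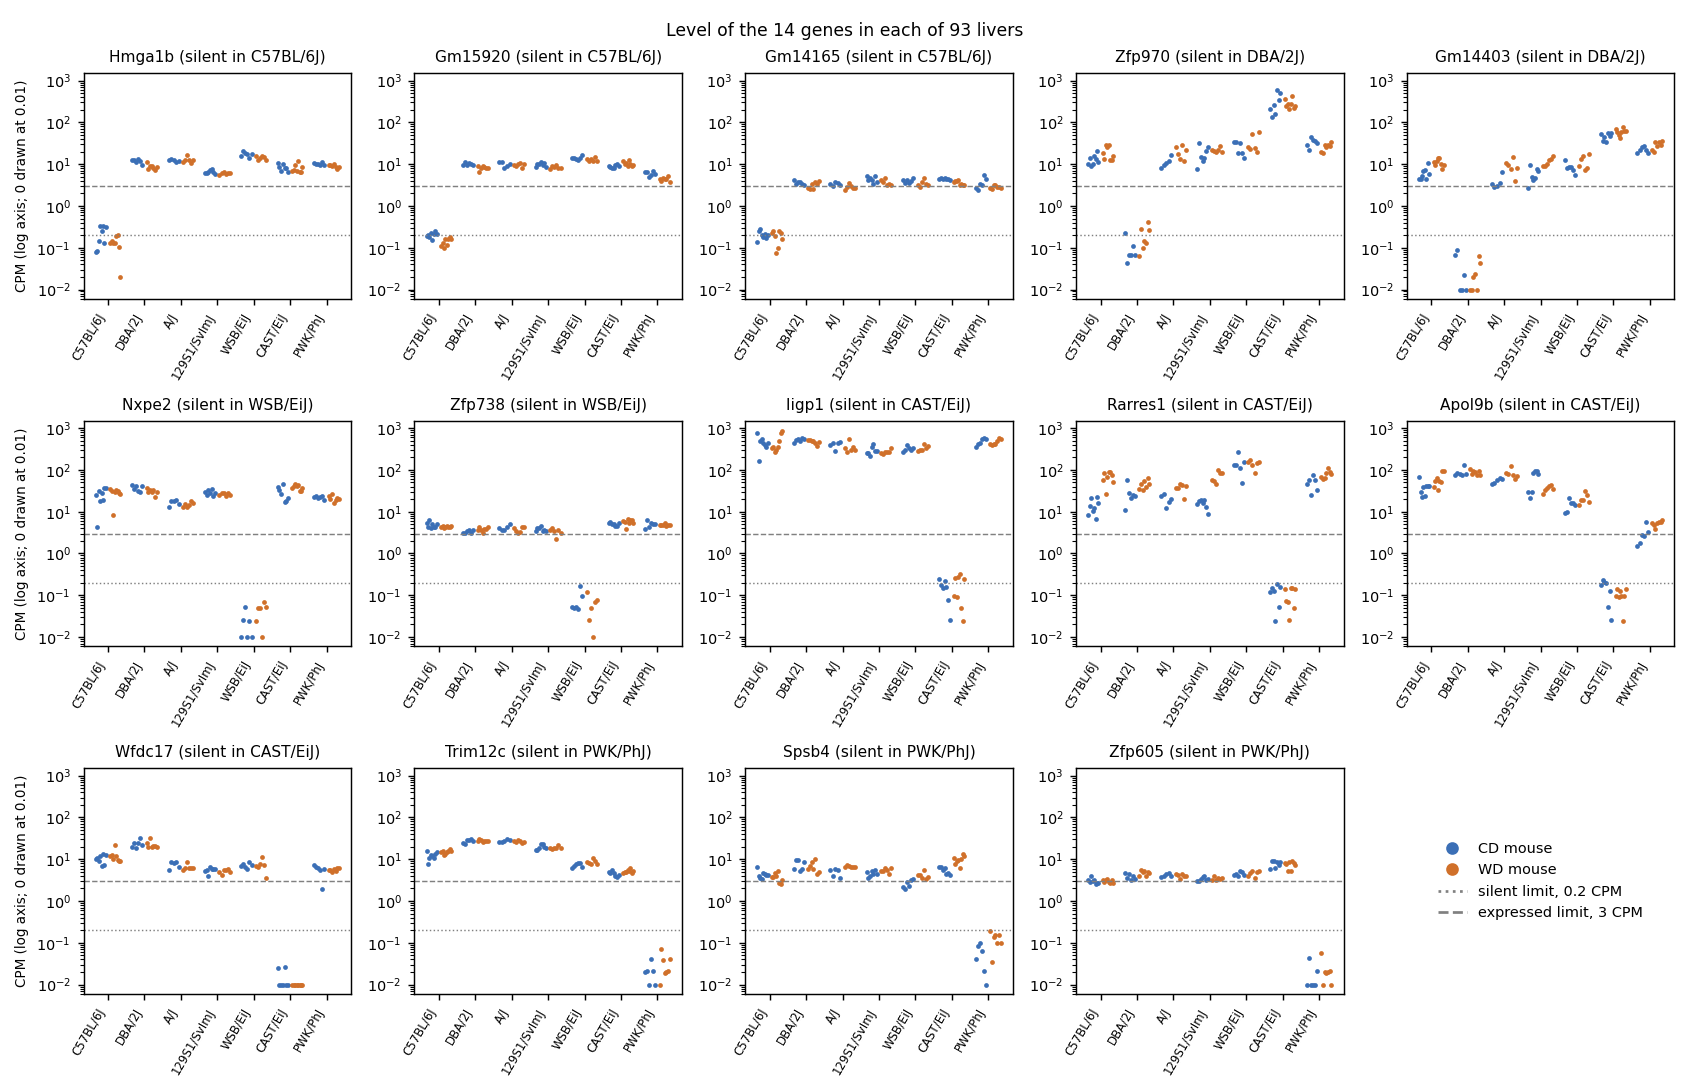
Each point is 1 mouse, placed by strain (horizontal axis) and by its level in CPM (vertical axis, log scale, with 0 drawn at 0.01), blue for CD and orange for WD. In each of the 14 panels the mice of the silent strain lie below every mouse of the other 6 strains, and the highest silent mouse reached 0.412 CPM.

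In 14 of 14 genes, no mouse of the silent strain reached the lowest mouse of the other 6, which the rule makes likely. The lowest mean among the 6 expressing strains and the highest differed by 1.32-fold to 20.9-fold, and by at least 4-fold for 6 of the genes. For 11 genes the silent mean was below 0.2 CPM in every cohort of that strain. The exceptions were Hmga1b, Gm14165, and Iigp1, with 0.210, 0.202, and 0.231 CPM in 1 cohort each. The genes lay on 9 chromosomes, 12 were annotated as protein coding and 2 as processed pseudogenes.

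The 3 genes silent in C57BL/6J were single-exon copies of expressed genes. Hmga1b (chr11:120762794-120764419, GRCm38, plus strand) is a copy of Hmga1, which encodes a chromatin protein that binds AT-rich DNA. Gm15920 (chr5:130188395-130188796, plus strand) is a processed pseudogene of Ndufa12, a subunit of mitochondrial complex I. Gm14165 (chr2:152353615-152354566, plus strand) is a processed pseudogene of Rplp0, a protein of the ribosomal stalk. Over the aligned coding sequence Hmga1b differed from Hmga1 at 0 of 317 bases, Gm15920 from Ndufa12 at 2 of 399 bases, and Gm14165 from Rplp0 at 25 of 949 bases. The alignments left out 4 gap bases for Hmga1b, 0 for Gm15920, and 2 for Gm14165. The stretches below, 120 bases each from the GENCODE M21 transcripts, show how little separates 2 of these copies from their parents, with the bases that differ in capitals. The Ndufa12 gene lies at chr10:94198720-94221443 (plus strand) and Rplp0 at chr5:115559467-115563727 (plus strand).
Gm15920, against bases 49 to 168 of the parent's coding sequence: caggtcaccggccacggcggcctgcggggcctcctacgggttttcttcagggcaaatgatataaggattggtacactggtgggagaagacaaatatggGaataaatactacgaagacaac
Ndufa12, bases 49 to 168: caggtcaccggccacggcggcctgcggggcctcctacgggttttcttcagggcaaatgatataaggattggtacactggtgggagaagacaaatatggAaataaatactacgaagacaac
Gm14165, against bases 429 to 548 of the parent's coding sequence: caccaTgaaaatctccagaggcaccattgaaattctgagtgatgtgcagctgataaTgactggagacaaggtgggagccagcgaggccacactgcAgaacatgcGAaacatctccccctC
Rplp0, bases 429 to 548: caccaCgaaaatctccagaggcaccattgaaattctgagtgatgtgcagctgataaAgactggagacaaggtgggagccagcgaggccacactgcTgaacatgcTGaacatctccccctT

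All 3 copies kept a few reads in every C57BL/6J mouse, which sets them apart from most of the other genes. Hmga1b had a mean of 0.170 CPM ± 0.0939 (SD, n = 16) in C57BL/6J, from 0.0204 to 0.331 in single mice, against means of 6.33 CPM in 129S1/SvImJ to 16.0 in WSB/EiJ. Gm15920 had 0.173 CPM ± 0.0446 in C57BL/6J against 5.14 CPM in PWK/PhJ to 13.5 in WSB/EiJ. Gm14165 had 0.196 CPM ± 0.0587 against 3.10 CPM in A/J to 4.08 in 129S1/SvImJ, an 18.3-fold difference of the means and the smallest of the 14. Of all 50-base windows of their transcripts, 11.03% of Hmga1b, 21.3% of Gm15920, and 60.9% of Gm14165 occurred in no other GENCODE gene, and Hmga1 held all 1403 windows that Hmga1b shared. In the submitters' processing notes the aligner was STAR, whose gene counts leave out reads that fit several places.

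The parents differed between strains in different ways. Hmga1 had 19.0 CPM ± 3.49 (SD, n = 16) in C57BL/6J and strain means between 4.17 in PWK/PhJ and 6.34 in WSB/EiJ. Hmga1b took 0.851% of the reads of the pair in C57BL/6J and 57.2% to 71.5% in the other 6 strains, and no C57BL/6J mouse (highest 1.42%) came near the lowest other mouse, in 129S1/SvImJ, at 52.1%. The sum of the pair was 19.2 CPM in C57BL/6J, inside the range of 11.1 to 22.3 CPM over the other strains. Ndufa12 showed no such excess, with 23.6 CPM ± 1.88 in C57BL/6J between 18.3 in PWK/PhJ and 40.6 in WSB/EiJ, and the pair summed to 23.8 CPM in C57BL/6J against 23.4 to 54.1 elsewhere. Gm15920 took 0.731% of the pair's reads in C57BL/6J and 21.9% to 29.1% elsewhere. Gm14165 took 0.0567% of the reads of its pair in C57BL/6J and 1.20% to 2.79% elsewhere. Rplp0 stood at 345 CPM ± 29.0 in C57BL/6J and between 130 and 311 CPM in the other strain means. Gm8730, a further Rplp0 copy that shares 329 of the 353 shared windows of Gm14165, had 2.53 CPM in C57BL/6J and 21.4 to 106 CPM in the other strains.

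**Figure D2:**
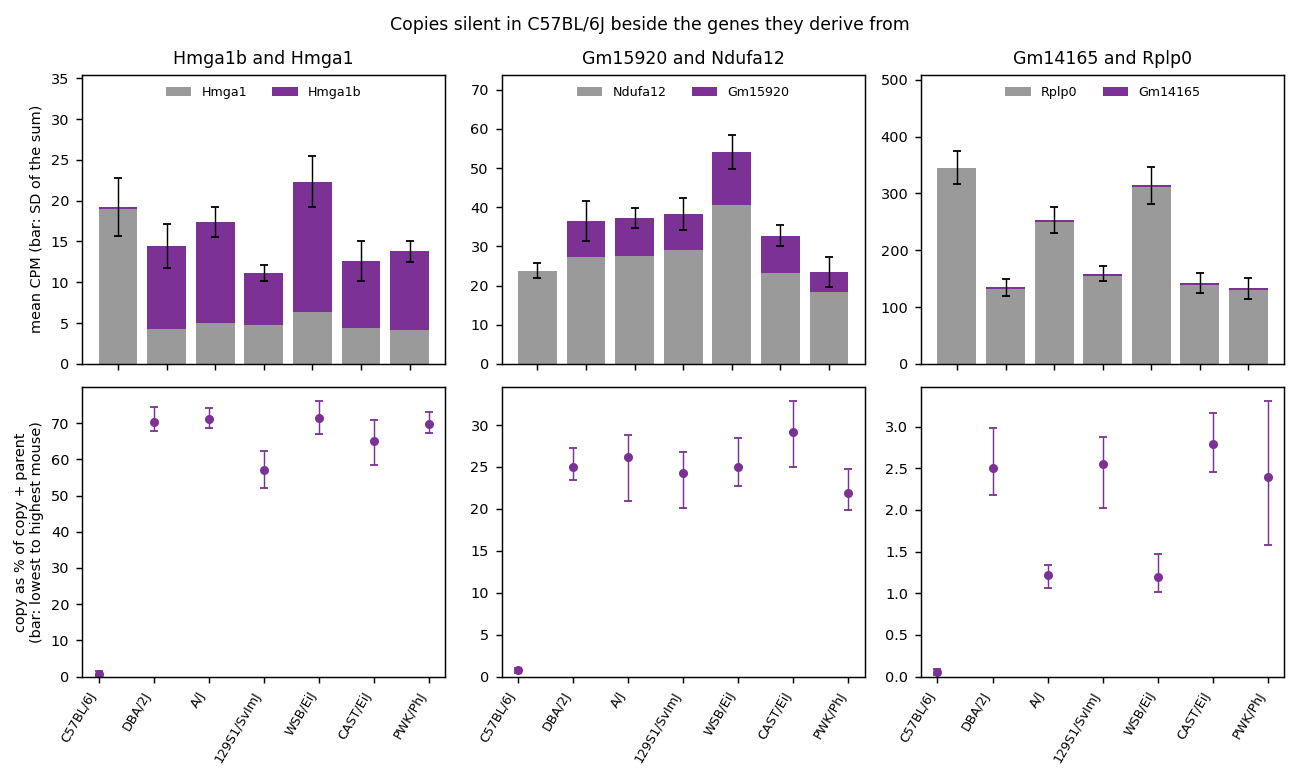
The upper row stacks the mean CPM of each copy (purple) on that of its parent (grey) by strain, with the SD of the sum over mice as the error bar. The lower row gives the copy's percentage of the reads of the pair, with a bar from the lowest to the highest mouse, and C57BL/6J lies near 0 in all 3 panels.

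Both genes silent in DBA/2J encode Krüppel-type zinc finger proteins and lie side by side on chromosome 2. Many proteins of this family bind DNA through arrays of zinc fingers and are known to silence transposable elements, and their genes stand in clusters that change quickly between strains. Zfp970 (chr2:177464733-177478129, plus strand) had 0.151 CPM ± 0.110 (SD, n = 13) in DBA/2J, with 90 reads over all 13 mice. Its means in the other strains were 16.0 CPM in A/J, 16.3 in C57BL/6J, and 19.7 in 129S1/SvImJ, which lay within their SDs of each other. PWK/PhJ and WSB/EiJ had 29.4 and 29.6 CPM, and CAST/EiJ had 300.0 ± 131 CPM. Every CAST/EiJ mouse (lowest 135 CPM) was far above the mean of each other strain. Gm14403 (chr2:177498215-177509763, plus strand), 32.6 kb away, had 0.0254 CPM ± 0.0309 in DBA/2J, with 15 reads in all and 6 mice at 0. Its means elsewhere rose from 6.76 CPM in A/J to 25.8 in PWK/PhJ and 54.2 in CAST/EiJ, so CAST/EiJ was again the highest.

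Several genes around the pair were low in DBA/2J as well. Gm14418, the nearest tested gene before Zfp970, had 0.0150 CPM in DBA/2J against a mean of 0.835 CPM over the other strains. Gm14400, 244 kb from Zfp970, had 0 CPM against a mean of 2.62 CPM, but the other strain means ran from 0.00151 to 11.7 CPM. The level of Gm14400 near 0 was thus not particular to DBA/2J. Gm16363, after Gm14403, had 0.00337 CPM against a mean of 0.236, with 0.0209 to 1.09 CPM in the other strains. Gm14325, further along, did not share this, with 5.02 CPM against 4.70. The closest proteins, Gm14295 for Zfp970 (77.6% identical) and Gm14399 for Gm14403 (83.04%), had 1.48 CPM in DBA/2J against 0.386 to 2.49 and 0.965 CPM against 0.494 to 1.37. These genes resemble each other closely, and 50.3% of the 50-base windows of Zfp970 and 63.9% of those of Gm14403 were unique to them. A list of 42 other genes was drawn by name for this cluster, and some lay far from it, as Gm14459 on chromosome X. Of the 42, 9 had a mean of at least 1 CPM, and DBA/2J was the lowest strain for 2 of these and above the mean of the others for 5. Over all 12461 genes with a mean of at least 1 CPM, DBA/2J was the lowest strain for 10.1%. No such share stands beside the count above the mean.

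The 2 genes silent in WSB/EiJ were Nxpe2 on chromosome 9 and Zfp738 on chromosome 13. Nxpe2 (chr9:48318006-48353454, minus strand), of the neurexophilin and PC-esterase domain family, had 0.0288 CPM ± 0.0252 (SD, n = 12) in WSB/EiJ, with 14 reads in all and 4 mice at 0. Its other means ran from 15.8 CPM ± 2.37 in A/J to 34.2 ± 9.79 in CAST/EiJ, and the lowest of those mice, in C57BL/6J, had 4.19 CPM. Nearly all of its windows (99.95%) were unique, and its nearest relative by protein, Nxpe4 (55.0% identical), stood at 0.436 CPM in WSB/EiJ, within the 0.0531 to 2.08 CPM of the other strains. The neighbouring pseudogene Nxpe1-ps had 0 CPM in WSB/EiJ against a mean of 0.175. Zfp738 (chr13:67658685-67687071, minus strand), another Krüppel-type zinc finger gene, had 0.0671 CPM ± 0.0441 in WSB/EiJ and 3.59 CPM in 129S1/SvImJ to 5.41 in CAST/EiJ. Its nearest relative, the neighbouring Zfp729a (83.3% identical in protein), had 10.5 CPM in WSB/EiJ and 7.98 to 21.4 CPM elsewhere. A list of zinc finger genes drawn by name, most of them near Zfp738, held 19 with a mean of at least 1 CPM. It included Zfp54 and Zfp952 on chromosome 17 and Zfp72 further along chromosome 13. WSB/EiJ was the lowest strain for 7 of the 19, and 1 of the 19 lay below 0.25 of the others' mean. Over all 12461 genes with that level, WSB/EiJ was the lowest for 13.5%. No such share stands beside the count below 0.25. Annotated genes on the opposite strand overlap the exons of Zfp738, and the strand setting of the counts is not given in the sources used here.

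CAST/EiJ had 4 silent genes, and none of them was a gene without introns. Wfdc17 (chr11:83703991-83706268, plus strand) encodes a small secreted protein with a WAP domain, known from macrophages. It had 2 reads in all 15 CAST/EiJ mice and 0 reads in 13 of them. The other strain means were 5.41 CPM ± 0.738 in 129S1/SvImJ (n = 13), 5.61 in PWK/PhJ, 6.92 in A/J, 7.13 in WSB/EiJ, 11.2 in C57BL/6J, and 23.0 ± 4.54 in DBA/2J (n = 13). No 50-base window of Wfdc17 was shared with another gene. Some genes near it were low in CAST/EiJ too. The chemokine genes Ccl4 and Ccl3 had 0.0527 and 0.0443 CPM against 0.459 and 0.448 CPM over the other strains, and Wfdc18, its closest protein (67.1% identical), had 0.00814 CPM against 0.0291 to 0.349. Wfdc21 had 23.3 CPM, inside the 0.682 to 205 CPM of the other strains, and Ccl9 had 98.4 CPM against a mean of 106. In a whole liver, fewer cells of a type and less RNA per cell cannot be told apart. The 6 Kupffer cell markers (resident macrophages) summed to 200 CPM in CAST/EiJ (124 to 288 in single mice), inside the strain means of 185 CPM in PWK/PhJ to 350 in C57BL/6J, and 0 of the 6 were below 0.2 CPM in CAST/EiJ.

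Rarres1 (chr3:67478972-67515523, minus strand) encodes a protein of the latexin family and is known to respond to retinoic acid. It had 0.108 CPM ± 0.0535 (SD, n = 15) in CAST/EiJ, with 65 reads in all. The other means were 29.5 CPM in A/J and 37.4 in DBA/2J. C57BL/6J and 129S1/SvImJ had 40.8 and 41.2 CPM, PWK/PhJ 65.1, and WSB/EiJ 142. All of its windows were unique, and its closest protein, Lxn, was 30.9% identical. Of the tested genes next to it, Mfsd1 had 105 CPM in CAST/EiJ and 97.1 CPM over the others, and the predicted gene Gm42568 had 0.2003 against 0.778 CPM.

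Apol9b (chr15:77729039-77736382, plus strand) belongs to the apolipoprotein L family, several of whose mouse members are induced by interferon. It had 0.122 CPM ± 0.0613 (SD, n = 15) in CAST/EiJ and 4.21 CPM ± 1.64 in PWK/PhJ, then 17.8 in WSB/EiJ. C57BL/6J and 129S1/SvImJ had 49.2 and 49.98 CPM, A/J 70.6, and DBA/2J 88.0 ± 16.9. The wild-derived strains WSB/EiJ, PWK/PhJ, and CAST/EiJ thus had the 3 lowest means. Its close relative Apol9a (chr15:77403789-77411135, minus strand) was also low in CAST/EiJ, with 0.873 CPM ± 0.305 against 15.3 to 61.4 CPM elsewhere. The coding sequences of the 2 genes differ at 14 of 930 bases, and 47.7% of the windows of Apol9b were unique. The 120 bases with the most differences are shown for both, with the differing bases in capitals, because reads can be assigned to 1 of the 2 genes only through such bases.
Apol9b, bases 460 to 579 of the coding sequence: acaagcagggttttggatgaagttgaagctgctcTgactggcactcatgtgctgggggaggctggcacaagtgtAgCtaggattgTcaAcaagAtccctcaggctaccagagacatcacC
Apol9a, bases 460 to 579: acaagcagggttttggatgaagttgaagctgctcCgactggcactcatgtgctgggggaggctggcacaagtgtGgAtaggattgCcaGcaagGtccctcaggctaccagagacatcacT

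Iigp1 (chr18:60376027-60392634, plus strand) encodes an interferon-inducible GTPase of the immunity-related GTPase family, which is known for attacking the vacuoles of intracellular parasites. CAST/EiJ had 0.161 CPM ± 0.0965 (SD, n = 15), with 98 reads over 15 mice and at most 13 in any mouse. The other strains had 286 CPM ± 55.4 in 129S1/SvImJ (n = 13), 331 in WSB/EiJ, 373 in A/J, 459 ± 191 in C57BL/6J, 472 in PWK/PhJ, and 495 ± 58.6 in DBA/2J, which is 2502-fold more on average. The lowest of those mice, in C57BL/6J, had 163 CPM, and 98.3% of the windows of Iigp1 were unique. Some genes near it were low in CAST/EiJ as well. Gm4951, whose protein is 77.3% identical to that of Iigp1, had 3.46 CPM ± 1.41 against 36.3 to 123 CPM elsewhere, F830016B08Rik had 0.00328 CPM against 0.458 to 4.81, and BC023105 had 1.80 CPM against 1.87 to 33.5. Gm4841 had 0.931 CPM in CAST/EiJ, below the others' mean of 2.08 CPM but above the lowest other strain at 0.201. Gm5970 was not low, with 8.32 CPM against a mean of 5.49.

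Other interferon-inducible GTPases were read in CAST/EiJ from a list of 19 genes written after the levels were seen. CAST/EiJ was the lowest of the 7 strains for 10 of the 19 and above the mean of the others for 0, and 7 lay below 0.25 of that mean. Over all 12461 genes with a mean of at least 1 CPM, CAST/EiJ was the lowest strain for 21.9%. No share over all genes stands beside the other counts, so whether those are unusual was not tested. Igtp had 8.38 CPM in CAST/EiJ against 24.0 to 75.0, Gbp10 had 0.00968 CPM against 0.0755 to 11.8, and Tgtp2 had 0.0117 against 0.775 to 5.13. Irgm1 and Ifi47 did not share the low level, with 57.9 CPM against a mean of 64.8 and 18.9 CPM against 19.5.

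In PWK/PhJ the silent genes were Trim12c, Spsb4, and Zfp605. Trim12c (chr7:104338754-104353362, minus strand) is a relative of Trim5, the gene of an antiviral restriction factor. It had 0.0242 CPM ± 0.0199 (SD, n = 13) in PWK/PhJ, with 16 reads in all. Its other means formed a wide series, from 4.89 CPM in CAST/EiJ and 8.01 in WSB/EiJ to 13.6 in C57BL/6J, 19.3 in 129S1/SvImJ, 27.2 in A/J, and 27.7 in DBA/2J. The last 2 differed by less than their SDs of 1.72 and 2.12 CPM. Trim5 (94.4% identical in protein) and Trim12a were high in other strains than Trim12c. Trim12a had 9.26 CPM in C57BL/6J and 1.09 CPM in WSB/EiJ, and at most 0.0518 CPM in each of the other 5 strains. Trim5 had 0.815 CPM in PWK/PhJ, at most 0.0467 CPM in DBA/2J, A/J, and 129S1/SvImJ, and 2.31 to 4.43 CPM in the other 3 strains. In the same cluster, Trim30a and Trim30d were above the others in PWK/PhJ, with 15.6 CPM against 8.44 and 13.5 against 2.54. Of the windows of Trim12c, 66.3% were unique, and Trim5 held 889 of the 1237 that were shared.

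Spsb4 (chr9:96943482-97018843, minus strand), which encodes the substrate-binding part of a ubiquitin ligase, had 0.0906 CPM ± 0.0576 (SD, n = 13) in PWK/PhJ. Its other means were between 3.38 CPM in WSB/EiJ and 7.79 in CAST/EiJ, and Spsb1, its nearest relative (74.4% identical in protein), had 1.80 CPM in PWK/PhJ against 1.44 to 4.64. Zfp605 (chr5:110110092-110129794, plus strand), a zinc finger gene, had 0.0155 CPM ± 0.0184 in PWK/PhJ, with 10 reads in all and 6 mice at 0. Its other means ran from 3.03 CPM in C57BL/6J to 7.53 in CAST/EiJ. Both genes overlap an antisense gene, Gm16010 and Gm15484, and reads of the antisense gene cannot be told apart from theirs without a known strand setting.

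Just inside the limit of 0.2 CPM were Gm14165, Gm15920, and Hmga1b, all in C57BL/6J. Just outside it were the hepcidin gene Hamp2 in WSB/EiJ (0.203 CPM), Sult1c2 in WSB/EiJ (0.285), and the urinary protein gene Mup1 in PWK/PhJ (0.286). For the limit of 3 CPM, Zfp605 (3.03), Gm14165 (3.10), and Spsb4 (3.38) were just inside in their lowest expressing strain. C730036E19Rik (2.96), Gm15746 (2.84), and Gm11868 (2.67) were just outside.

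None of the 14 genes was on a list of 17 known loss-of-function or non-expressed alleles in 14 genes, which was written by hand from general knowledge and is not complete. Of these alleles, 7 were below 0.2 CPM in their strain, 5 had at least 3 CPM in each of the other 6 strains, and 0 met both limits. The nearest was Gpnmb in DBA/2J, a macrophage glycoprotein gene with a premature stop in that strain. It had 0.0504 CPM ± 0.0481 in DBA/2J (n = 13), and its lowest other mean, in CAST/EiJ, was 2.64 CPM. Single mice spread from 0.592 CPM upwards in C57BL/6J, where the mean was 29.4 ± 47.3. Its CD means were also low in A/J (0.232 CPM), 129S1/SvImJ (0.287), CAST/EiJ (0.436), and WSB/EiJ (0.602). On WD these strains had 6.14, 22.5, 4.57, and 12.5 CPM. In C57BL/6J on CD the mean was 24.0 CPM, but the median was 1.22 and the highest mouse had 175. Ifi202b, known not to be expressed in C57BL/6J, had 0.0127 CPM there, but also 0.00162 CPM in CAST/EiJ. Nnt, whose C57BL/6J allele lacks internal exons, kept 70.6 CPM ± 10.0 (n = 16) in C57BL/6J, where its mean was below the 88.7 to 196 CPM of the other strains. Hc, with a frameshift in DBA/2J and A/J, kept 351 and 205 CPM, so a null allele need not remove the reads of a gene.

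The count of genes that were low in 1 strain, the silent ones included, was highest in CAST/EiJ and PWK/PhJ. Among the genes with at least 3 CPM in all other strains, 109 of 9338 in CAST/EiJ and 88 of 9300 in PWK/PhJ lay below 0.25 of the others' mean. The same count was 55 of 9264 in WSB/EiJ and between 30 in DBA/2J and 48 in A/J in the other 4 strains. At less than 0.0625 of the mean it was 24 in CAST/EiJ, 20 in PWK/PhJ, 17 in C57BL/6J, and 13 in A/J. WSB/EiJ had 10 genes there, DBA/2J 9, and 129S1/SvImJ 7, so WSB/EiJ did not stand out at that limit. At less than 0.5 of the mean the counts were 411 in CAST/EiJ, 318 in PWK/PhJ, 249 in WSB/EiJ, and 112 to 158 in the others, and at more than 2 times the mean 176, 125, 65, and 22 to 93. The share of unmapped reads was highest in CAST/EiJ, and its part in these counts was not tested. The genes silent in exactly 2 strains numbered 5, which were Erc2, Srp54c, and Dsg1c in CAST/EiJ and PWK/PhJ, and C1rb and C1s2 in C57BL/6J and 129S1/SvImJ. The reverse pattern, at least 3 CPM in 1 strain and below 0.2 CPM in the other 6, was met by 44 genes, 21 of them in PWK/PhJ, 14 in CAST/EiJ, 4 in WSB/EiJ, and 0 in A/J.

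**Figure D3:**
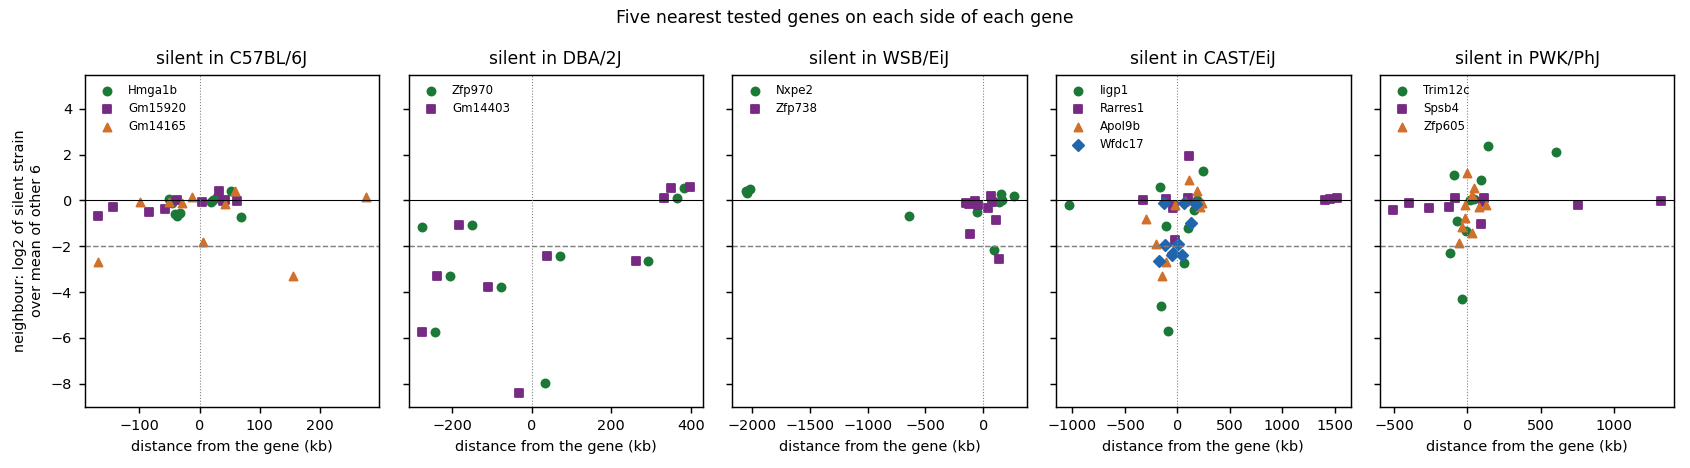
Each point is a tested gene next to one of the 14 genes, placed by its distance in kb (horizontal axis) and by the log2 ratio of the silent strain to the mean of the other 6 (vertical axis, 0.05 CPM added to both), in 1 panel per silent strain. The dashed line marks 0.25 of the others, and the neighbours of Zfp970 and Gm14403 in DBA/2J and of Iigp1 in CAST/EiJ reach far below it.

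The nearest tested neighbours were read on each side of the 14 genes. Of the 28, 8 were below 0.25 of the others' mean in the silent strain (0.05 CPM added to both), and 13 were within 2-fold. The 8 lay beside Zfp970, Gm14403, Nxpe2, Iigp1, and Wfdc17, and they include Zfp970 and Gm14403 themselves, each the neighbour of the other. Some of the 8 were low everywhere, with means over the other strains of 0.175 CPM for Nxpe1-ps and 0.236 for Gm16363. No share over all genes stands beside this count, so whether it is unusual was not tested. None of the nearest neighbours of the other 9 genes was below 0.25, and Rfng beside Hmga1b had 13.1 CPM in C57BL/6J against 13.9.

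For the 7 genes silent in CAST/EiJ or PWK/PhJ, the reads that remained over all mice of the strain numbered 98 for Iigp1, 74 for Apol9b, 65 for Rarres1, 59 for Spsb4, 16 for Trim12c, 10 for Zfp605, and 2 for Wfdc17. Of these genes, Wfdc17, Rarres1, Iigp1, and Zfp605 (97.2%) had nearly all windows to themselves in the reference, against 86.4% for Spsb4, 66.3% for Trim12c, and 47.7% for Apol9b. The list of known alleles held none of CAST/EiJ or PWK/PhJ, so it could not place any of the 7. No genome of either strain was used, so whether these genes lack RNA, lack the gene, or carry an allele too diverged to be mapped was not tested.

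The diet was not used to choose the genes, so WD was compared with CD in the 6 strains that express each of them. Of 84 pairs of gene and strain, 19 passed the test (limma-voom, adjusted p below 0.05 over 19110 genes), 13 higher and 6 lower on WD. In C57BL/6J 4 of 11 expressed genes were called, against 26.2% of all genes tested. The count was 3 of 12 in DBA/2J (background 18%), 2 of 14 in A/J (9.03%), 4 of 14 in 129S1/SvImJ (28%), 1 of 12 in WSB/EiJ (8.94%), 3 of 10 in CAST/EiJ (19.5%), and 2 of 11 in PWK/PhJ (29.6%). The median log2 difference of the genes lay between -0.10 in DBA/2J and 0.28 in C57BL/6J, with the median of all genes between -0.01 and 0.02. Iigp1, Wfdc17, Nxpe2, Zfp970, Zfp738, and Zfp605 were called in 0 strains. For Iigp1 the log2 differences lay between -0.26 and 0.07.

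**Figure D4:**
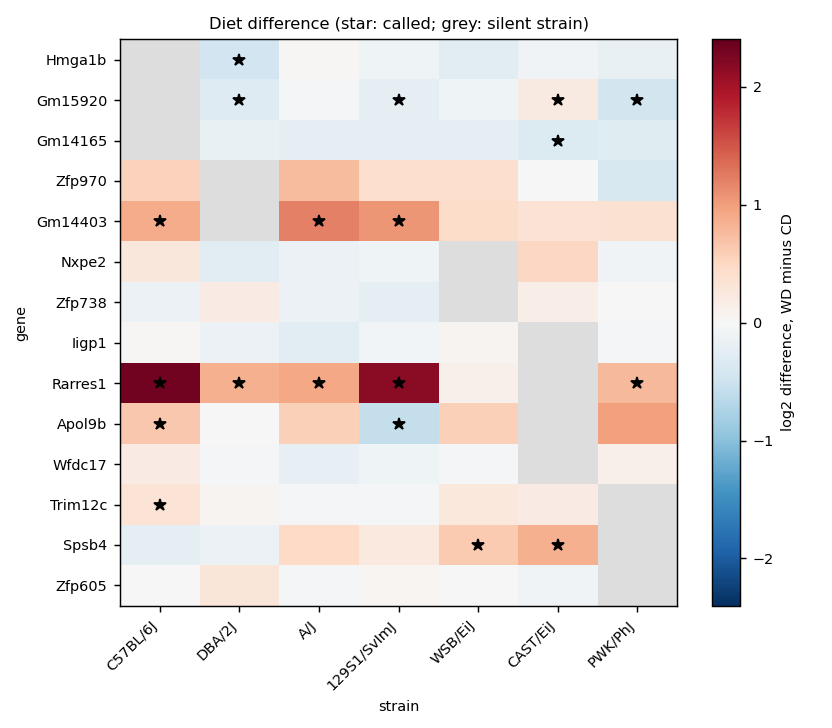
Colour gives the log2 difference of WD minus CD for each gene (vertical axis) in each strain (horizontal axis), red for higher on WD and blue for lower, with grey for the silent strain. Stars mark the 19 called differences, 5 of which are in the row of Rarres1.

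Rarres1 was raised by WD in 5 of the 6 strains that express it. In C57BL/6J, CD mice had a lowest, median, and highest level of 6.86, 12.9, and 22.1 CPM, and WD mice of 26.7, 71.1, and 90.6 CPM. The groups did not overlap, and the log2 difference was 2.31 ± 0.25 (SE, limma-voom adjusted p = 9.18e-12, 8 of 8 WD mice above all CD mice). In 129S1/SvImJ the CD mice ran from 8.73 over 16.3 to 19.2 CPM and the WD mice from 46.8 over 70.5 to 102 CPM. These groups did not overlap either, with a log2 difference of 2.17 ± 0.27 (limma-voom adjusted p = 2.56e-09). Smaller increases passed the test in A/J (0.92, adjusted p = 0.0332), DBA/2J (0.85, adjusted p = 0.0142), and PWK/PhJ (0.79, adjusted p = 0.0128), where the diets overlapped. In WSB/EiJ, where Rarres1 was highest, the means were 143 CPM on CD and 142 on WD, with a log2 difference of 0.13 that did not pass the test (adjusted p = 0.852). The diet effect differed among these 6 strains (limma F test, adjusted p = 4.18e-06), as it did for 26.8% of all genes over the same strains. The A/J increase did not pass the test with cohort as a covariate (log2 difference 0.76) or without A/J CD replicate 3, 4, or 5 (0.77 to 0.94).

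Gm14403 was raised in C57BL/6J from 6.18 to 11.01 CPM (log2 difference 0.89, adjusted p = 0.000320) and in A/J from 3.82 to 9.21 CPM (1.20, adjusted p = 0.00338). It was raised in 129S1/SvImJ from 5.82 to 11.8 CPM (1.07, adjusted p = 0.000174). In the other 3 strains its log2 difference was between 0.35 and 0.45 and did not pass the test. The F test over its 6 strains gave an adjusted p of 0.0351, where 32.1% of all genes passed. Its neighbour Zfp970, with log2 differences from -0.38 to 0.77, was called in none.

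Spsb4 was higher on WD in CAST/EiJ, from 4.25, 5.45, and 6.56 CPM (lowest, median, highest) to 6.19, 9.86, and 13.4 CPM. The log2 difference was 0.85 ± 0.15 (limma-voom adjusted p = 1.04e-05), and 7 of 8 WD mice were above all CD mice. It also rose in WSB/EiJ (0.64, adjusted p = 0.0452), where the log2 ratio of the means was 0.91 in cohort 6 and 0.094 in cohort 7. A/J had 0.49, with 6 of 6 WD mice above all CD mice, but did not pass (limma-voom adjusted p = 0.0694). Also without passing, 129S1/SvImJ had 0.24, C57BL/6J -0.24, and DBA/2J -0.15. The F test gave an adjusted p of 0.00046, where 25.5% of all genes passed over the strains other than PWK/PhJ.

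**Figure D5:**
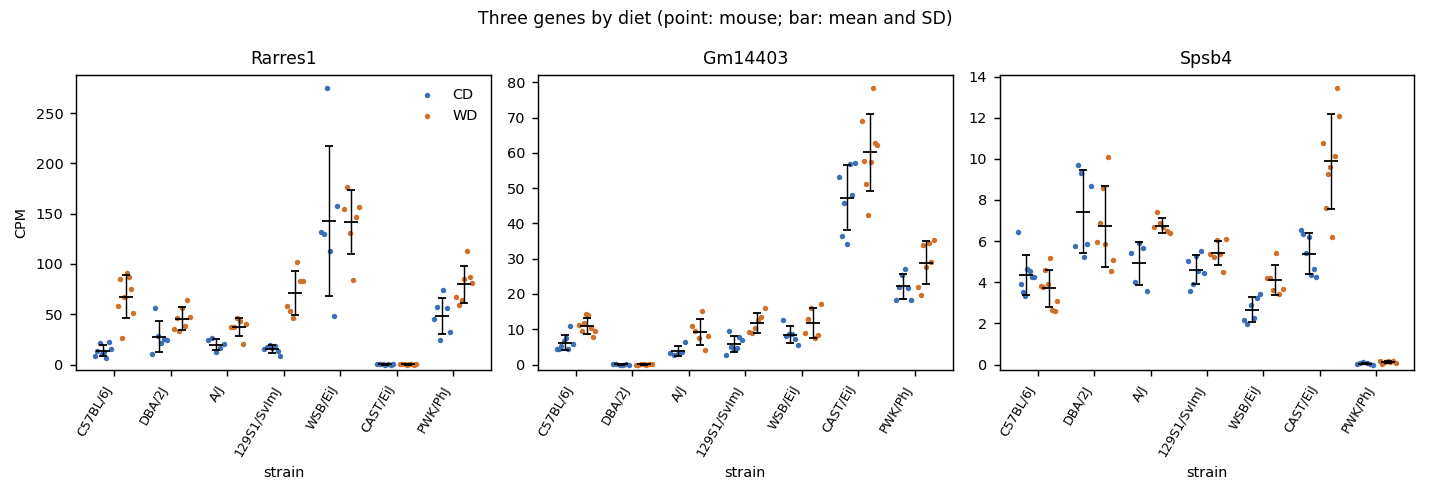
Points are mice on CD (blue) and WD (orange) by strain (horizontal axis) with the level in CPM (vertical axis), and black bars give the mean and SD of each group. Rarres1 rose to means of 67.6 and 71.1 CPM on WD in C57BL/6J and 129S1/SvImJ, and stood near 142 CPM on both diets in WSB/EiJ.

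The called log2 diet differences of the copies lay between -0.46 and 0.21. Gm15920 was called in 4 of its 6 strains, and in DBA/2J its 7 WD mice were all below every CD mouse. Gm15920 fell in PWK/PhJ (log2 difference -0.45), DBA/2J (-0.31), and 129S1/SvImJ (-0.22) and rose in CAST/EiJ (0.21), with an F test adjusted p of 5.07e-05 where 33% of all genes passed over the strains other than C57BL/6J. Hmga1b fell in DBA/2J (-0.46) and Gm14165 in CAST/EiJ (-0.34). The parent means, given without a test, were lower on WD in the strains where the copies fell, but also in strains where the copies were not called. Rplp0 was lower on WD in every strain, and Hmga1 in every strain but A/J (4.87 to 5.07 CPM). Ndufa12 was lower in every strain but C57BL/6J (23.4 to 23.8 CPM) and CAST/EiJ. Ndufa12 went from 20.4 to 16.4 CPM in PWK/PhJ, 29.9 to 25.2 in DBA/2J, and 31.1 to 26.6 in 129S1/SvImJ. It had 23.2 CPM on both diets in CAST/EiJ. Hmga1 went from 4.76 to 3.83 CPM in DBA/2J, and Rplp0 from 153 to 125 CPM in CAST/EiJ. For the 2 genes silent in WSB/EiJ, Nxpe2 and Zfp738, the F test was not passed, with adjusted p of 0.228 and 0.0763, where 37.2% of all genes passed. Trim12c rose in C57BL/6J from 12.2 to 15.1 CPM (0.33, adjusted p = 0.000741), and passed in 0 of the other 5 strains that express it.

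Apol9b rose in C57BL/6J from 38.1 to 60.3 CPM (log2 difference 0.65, adjusted p = 0.01001) and was lower on WD in 129S1/SvImJ (-0.57, adjusted p = 0.0456). The 129S1/SvImJ value differed between cohorts. In cohort 3 the 3 CD mice had 21.4 to 30.4 CPM and the 3 WD mice 26.4 to 36.2, so the levels overlapped and the mean was slightly higher on WD. In cohort 5 the 4 CD mice had 79.4 to 94.6 CPM and the 3 WD mice 35.9 to 42.7. This is the single one of the 19 called differences whose sign was not the same in every cohort, and upper-quartile normalization or testing genes of any count also left it above an adjusted p of 0.05.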

How the data were processed

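The authors made the libraries with a SMARTER mRNA kit, sequenced them on a BGISEQ-500, mapped the reads to the C57BL/6J genome with STAR (version 2.7.1a and GRCm38 per the submitters' notes), and deposited raw counts per gene and mouse, with no normalization. The annotation release, the read length, and the strand setting are not given in the sources used here. Lines for reads that were unmapped, multimapped, outside genes, or ambiguous were kept apart from the genes and gave the shares of reads.

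CPM were computed from the deposited counts with TMM factors (edgeR 4.0.16, R 4.3.3) and averaged per strain over both diets. The diet was tested with limma 3.58.1 (voom) in a fit of all 93 mice with 14 group means, on 19110 genes that passed filterByExpr at a minimum count of 10, with Benjamini–Hochberg adjustment within each strain. A limma F test of equal diet effects in the 6 expressing strains, and the values within cohorts, were added after the data were seen. Alternatives were edgeR's quasi-likelihood test, DESeq2 1.42.0, other limits, scalings, and filters, cohort as a covariate, and each A/J CD mouse left out, since that group had 5 mice. All mice entered as separate replicates, as the counts of mice of a group differed well beyond sampling noise. The scripts were tested on simulated data.

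GENCODE M21 (GRCm38) gave symbols for 53360 of 53465 genes, positions, and transcripts. Proteins translated from it were compared with blastp 2.17.0, and a relative had at least 50% identity unless stated. A window was any 50 bases of a gene's transcripts, compared on both strands with all other GENCODE transcripts, not with the genome.

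The 14 genes, the lists, and the tests were chosen with earlier results of these data known, and the lists of relatives and gene families were written after the levels were seen. All 14 genes are named, with values for the closest protein where it passed that identity, the 3 genes nearest to each limit, and called diet differences. The nearest tested neighbours are given as counts, with values for a selection, further ones included, made after the levels were seen. Values in every group are drawn in the plot of the 14 genes.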

Additional observations from a re-analysis of the deposited data

Results flagged for a closer look

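A mouse far from the others of its group by Dixon's ratio (the gap to the nearest mouse over the range of the group, at the 95% limit) was found in 17 of 168 groups of gene, strain, and diet, taken over the 6 expressing strains of each gene. About 1 in 20 groups is expected by chance. Replicate 3 of A/J on WD was the highest of its group for 4 genes: Iigp1 at 537 CPM with the nearest at 345 (ratio 0.722), Apol9b at 124 against 82.2 (0.671), Wfdc17 at 8.72 against 6.26 (0.751), and Hmga1b at 16.5 against 12.5 (0.695). In the same group, replicate 5 was the lowest for Rarres1, at 20.6 CPM with the nearest at 37.1 (0.649). Among the interferon-inducible genes, Apol9b also had a high mouse in DBA/2J on CD at 134 CPM (0.821) and in C57BL/6J on CD at 66.1 (0.544), and Iigp1 in 129S1/SvImJ on WD at 344 (0.688).

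The other values far from their groups were Wfdc17 in C57BL/6J on WD at 21.5 CPM (0.695) and in PWK/PhJ on CD at 1.94 (0.676), Gm14403 in A/J on CD at 6.37 (0.814), Zfp970 in 129S1/SvImJ on WD at 27.4 (0.738), Trim12c in 129S1/SvImJ on WD at 22.4 (0.765), Nxpe2 in C57BL/6J on WD at 8.52 (0.664), Zfp738 in PWK/PhJ on WD at 5.34 (0.616), Gm15920 in DBA/2J on WD at 6.38 (0.591), and Spsb4 in C57BL/6J on CD at 6.45 (0.583).

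The diet effect differed among the 6 expressing strains for 6 of the 14 genes (limma F test, adjusted p over all genes). The adjusted p was 4.2e-06 for Rarres1, 5.1e-05 for Gm15920, 0.00046 for Spsb4, 0.0017 for Apol9b, 0.023 for Trim12c, and 0.035 for Gm14403.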

How the results depend on the processing

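The number of genes silent in 1 strain followed the limits. With a silent limit of 0.1 CPM it was 7 in all (C57BL/6J 0, DBA/2J 1, CAST/EiJ 1), and with 0.5 CPM it was 25 (WSB/EiJ 5, CAST/EiJ 7, PWK/PhJ 6). With 1 CPM for the other 6 strains it was 57 (C57BL/6J 10, A/J 1, 129S1/SvImJ 4, WSB/EiJ 10, CAST/EiJ 20, PWK/PhJ 9), and with 5 CPM it was 8 (WSB/EiJ 1, PWK/PhJ 0). With every mouse past the limits it was 3 (C57BL/6J 0, DBA/2J 0, WSB/EiJ 1, CAST/EiJ 1, PWK/PhJ 1), namely Nxpe2, Rarres1, and Trim12c. In CD mice alone it was 9, with 0 in C57BL/6J, and all 9 were also chosen in WD mice alone, where 15 were chosen, with Gpnmb and Sult1c2 gained and Gm14165 lost. With the median of each strain in place of the mean it was 13, with Nipal1 gained and Gm14165 and Zfp605 lost. Without scaling factors 13 of the 14 remained, and with DESeq2 size factors, on all chromosomes, or without any A/J CD mouse all 14 did.

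The diet calls in PWK/PhJ were 4 with edgeR, 4 with DESeq2, and 4 with cohort as a covariate. Calls in 129S1/SvImJ were 2 with upper-quartile scaling. Without a filter the calls were 1 in A/J, 0 in WSB/EiJ, and 1 in CAST/EiJ. A/J had 1 call with cohort as a covariate and 1 to 2 without 1 CD mouse, with 1 without replicate 3, 4, or 5. Of the 19 called differences, 12 passed under every alternative and 0 changed sign. Those that lost the threshold in at least 1 alternative numbered 7. Besides Rarres1 in A/J and Apol9b in 129S1/SvImJ, they were Gm15920 in CAST/EiJ and 129S1/SvImJ, Gm14165 in CAST/EiJ, Rarres1 in DBA/2J, and Spsb4 in WSB/EiJ, and the causes were not tested. No paired analysis was possible because the labels give no replicate numbers that tie mice of the 2 diets together. At this depth 3 reads over a strain are 0.00356 to 0.00611 CPM, and only the silent mean of Wfdc17 (2 reads, 0.00343 CPM) lay below that.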
